A study of Arabidopsis thaliana with 4 samples.

Results

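NAC factors are a large plant family of DNA-binding proteins, and 82 of the genes that encode them in Arabidopsis thaliana were followed here through a map of LEC1 on seed chromatin. The 82 members were the protein-coding nuclear genes whose symbol in the RefSeq gene table was NAC or ANAC with a number (81 genes), together with RD26 (AT4G27410), out of 27444 protein-coding nuclear genes in all; shares of all genes given below include the members. CUC1, CUC2 and CUC3 were left out. Each member was examined for summits of LEC1-FLAG peaks from 1000 bp outside to 200 bp inside either gene end, called gene-end summits below, and deeper summits were kept apart as interior. A gene with at least 1 gene-end summit in a peak list is called met in that list. The genes were chosen by their symbols, and the division into genes met and not met was made by the summit positions themselves; the family was taken up with earlier results of these data known, so all its values are a description with no test.

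The ChIP libraries came from developing seeds of lec1-4 plants that carried LEC1-FLAG under the LEC1 promoter, precipitated with an antibody against FLAG, and the input libraries held total chromatin of the same plants, so the lec1-4 mutation and the transgene were shared by all libraries. There were 2 ChIP and 2 input libraries, described as biological replicates. Growth was at 22°C in long days of 16 h light and 8 h dark. The labels of the samples call the stage mature, and the title of the series calls it embryo expansion. No precipitation from plants without the tag was among the samples, so LEC1-FLAG and background of the antibody cannot be told apart at any gene. Seeds hold embryo, endosperm and seed coat, and the tissue in which a site was occupied cannot be told apart either.

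LEC1 is a seed-specific NF-YB subunit, part of a trimeric factor that recognises the CCAAT element, and it directs embryo development and the filling of the seed. NAC proteins bind DNA as dimers through a conserved domain at their N-terminus, named after NAM, ATAF and CUC, and carry a variable C-terminal part that activates or represses transcription. Members of the family act in responses to drought and abscisic acid, in leaf ageing, in secondary walls of vessels and fibres, in the root cap and in stress signals from the endoplasmic reticulum and mitochondria.

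The lists were of unequal length. Replicate 1 had 15542 nuclear summits from 4454133 ChIP tags and 7578894 input tags, and replicate 2 had 3777 nuclear summits from 4493099 ChIP tags and 9646586 input tags. Values at a summit are the authors' own: the pileup, which counts the extended ChIP fragments that cover the summit, and the fold enrichment. The fold is taken over the background, called local below, that the peak caller set for that summit with the input as control. Intervals on folds are 95% exact Poisson intervals of the pileup, with the background taken as exact, and cover counting error of the ChIP library only.

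LEC1-FLAG was found at the ends of 16 of the 82 NAC genes in both replicates. These were NAC004, NAC13, NAC014, NAC019, NAC1, NAC032, NAC048, NAC049, NAC052, NAC062, NAC069, NAC085, NAC102, NAC103, RD26 and AT3G15500, which has the symbol NAC3 and the synonym ANAC055. The 16 genes were 19.5% of the members, against 11.7% of all protein-coding nuclear genes met in both lists. Replicate 1 alone met a further 22 members (26.8%, against 30.7% of all genes) and replicate 2 alone met 2 (2.44%, against 0.386%), while 42 members (51.2%, against 57.2%) had a gene-end summit in neither list. Counted list by list, replicate 1 met 38 members (46.3%, against 42.4% of all genes) and replicate 2 met 18 (22.0%, against 12.0%). Stricter rules left fewer genes: 10 members (12.2%) with the window cut to 500 bp outside, against 8.62% of all genes, and 10 members (12.2%) at a −log10 q of at least 5, against 6.65%. At a −log10 q of at least 10 only NAC103 and RD26 remained in both lists, which was 2.44% of the members, against 2.58% of all genes. With only as many of the strongest replicate 1 summits as replicate 2 has, 15 members (18.3%) were met in both lists, against 9.32% of all genes.

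By known role, 5 of the 16 members met in both replicates were genes for abscisic acid and stress responses and 4 were genes for membrane-tethered factors. Roles were laid down as 11 lists by identifier, which took in 49 of the 82 members. In each list the genes counted first are the members, and NAC genes known by other names are added after them. Of 6 members for abscisic acid and stress responses, 5 were met in both lists and NAC047 in replicate 1 alone, and with ATAF1 and ATAF2, both met in replicate 1 alone, the list had 5 of 8 in both. Of 9 members for membrane-tethered factors, 4 were met in both lists, 4 in replicate 1 alone and 1 in replicate 2 alone, and the whole list had 7 of 13 in both. The 7 members for leaf ageing were met in neither list, while the other gene of that list, NAP, was met in replicate 1 alone at 6.52-fold. Members for secondary walls and vessels had 0 of 10 met in both and 7 in neither, and those for the phloem had 0 of 5 in both and 3 in neither. Among the 33 members in no role list, 4 were met in both and 19 in neither.

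These lists are small, and a gene could have been placed in another list, as with NAC032, which has a part in both stress and leaf ageing. Over all genes the shares were 11.7% in both lists, 30.7% in replicate 1 alone, 0.386% in replicate 2 alone and 57.2% in neither. The counts of members met in both lists also moved with some of the rules. The abscisic acid and stress members had 3 of 6 with the 500 bp window. They had 5 of 6 at a −log10 q of at least 5 and 1 of 6 at a −log10 q of at least 10. The membrane-tethered members had 3 of 9, 2 of 9 and 0 of 9 under these rules, in the same order. Of all genes, the rules met 8.62%, 6.65% and 2.58%.

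**Figure D1:**
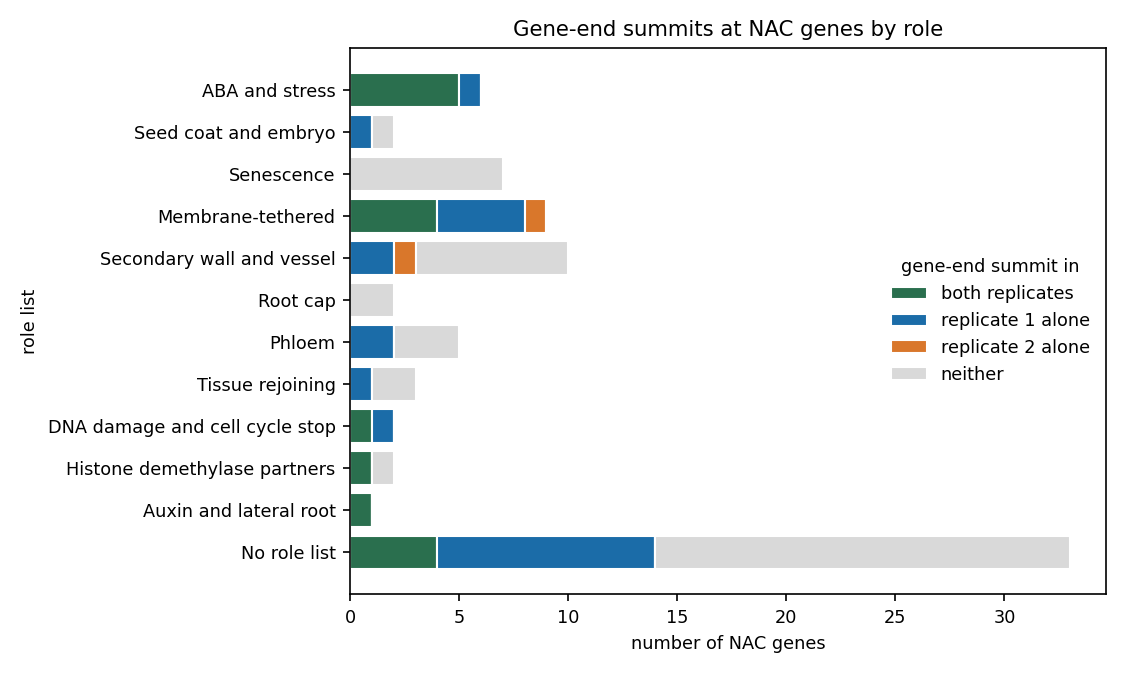
Number of NAC genes (horizontal axis) in each role list (vertical axis), coloured by whether a gene-end summit was listed in both replicates, in replicate 1 alone, in replicate 2 alone or in neither. The plot holds the 82 members and no NAC gene of another name; 5 of the 6 abscisic acid and stress members were met in both replicates, and the 7 leaf ageing members in neither.

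RD26, NAC019 and ANAC055 are close relatives that are induced by dehydration and abscisic acid and act in the responses to drought and jasmonate, and all of them were met in both lists. RD26 had 9.19-fold enrichment in replicate 1 (95% interval 7.49 to 11.2, pileup 100 fragments) and 4.74-fold in replicate 2 (3.32 to 6.57, pileup 34). The summits lay 1 bp apart, at positions 13709855 and 13709854 of chromosome 4 (build TAIR10), 685 and 684 bp outside the gene. They were almost as close to the neighbouring gene AT4G27415, from which they lay 693 and 694 bp, so RD26 was only narrowly the nearer gene. A weaker replicate 1 summit of 6.66-fold lay 103 bp outside RD26 in the same peak and had no counterpart in replicate 2.

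ANAC055 was the member of this trio with a repeated double site. Its stronger replicate 1 summit lay 53 bp inside the gene at 12.8-fold (10.5 to 15.5, pileup 101), and replicate 2 had 3.56-fold (2.37 to 5.15, pileup 26) at 79 bp inside. The second site lay further out, 401 bp outside the gene in replicate 1 at 7.29-fold and 385 bp outside in replicate 2 at 3.44-fold. Both sites were thus found in both lists, and no other protein-coding gene had either of them in its gene-end window.

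NAC019 had its strongest summits near the far limit of the window. They lay 926 bp outside the gene in replicate 1 with 11.1-fold (9.00 to 13.7, pileup 91) and 965 bp outside in replicate 2 with 3.79-fold (2.61 to 5.32, pileup 31). A replicate 1 summit of 4.66-fold at 91 bp outside the same end had no counterpart in replicate 2. In each gene of this trio, then, replicate 1 had 2 gene-end summits on the same side of the gene, a near one within about 100 bp of the gene end and a far one.

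NAC032, a stress-induced factor that promotes leaf ageing under stress, had the highest replicate 1 fold of all members. It reached 14.4-fold in replicate 1 (12.0 to 17.1, pileup 127) at 56 bp outside the gene, and 3.89-fold in replicate 2 (2.63 to 5.56, pileup 28) at 121 bp outside. It was also the only member with an interior summit in both lists, 916 bp from the nearer end at 13.5-fold in replicate 1 and 936 bp from it at 4.25-fold in replicate 2, and in replicate 2 the interior fold exceeded the gene-end fold by less than counting error. In all, 12 members (14.6%) had an interior summit in replicate 1, against 12.8% of all genes, and NAC032 alone (1.22%) had one in replicate 2, against 1.93%. Interior summits in both lists were found in 1.80% of all genes.

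NAC102, known for its part in germination under low oxygen, had 8.77-fold enrichment in replicate 1 (7.26 to 10.5, pileup 116) at 18 bp inside the gene end. Replicate 2 had 4.08-fold (2.76 to 5.83, pileup 28) at 62 bp outside it. In replicate 1 its pileup of 116 fragments stood over a local background of 13.3 fragments, while the background at NAC032 was 8.91. NAC047, which acts in the upward bending of leaves under flooding, was the remaining member of the abscisic acid and stress list. Replicate 1 had summits of 2.89-fold and 5.78-fold at its opposite ends, 154 and 778 bp outside, and the nearest replicate 2 summit was 16753 bp from the stronger one.

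Among the membrane-tethered factors, which are held at a membrane and released by a signal, NAC069, NAC13, NAC014 and NAC062 were met in both lists. NAC069, linked to salt responses during germination, had 6.89-fold (5.21 to 8.96) in replicate 1 and 3.50-fold (2.27 to 5.18) in replicate 2. Its summits lay 486 and 519 bp outside the gene and 587 and 554 bp from NTM1, a neighbouring gene for another membrane-tethered NAC factor, so 1 peak in each list counted for both genes. NAC062, which acts in the response to stress of the endoplasmic reticulum, had 7.37-fold (5.86 to 9.15) in replicate 1 and 2.58-fold (1.66 to 3.85) in replicate 2, at 62 and 153 bp outside the gene.

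NAC13 and NAC014 differed in how alike the lists were. NAC13, a regulator of nuclear genes that respond to failing mitochondria, had 4.09-fold (3.00 to 5.47, pileup 44) in replicate 1 and 3.62-fold (2.37 to 5.32, pileup 24) in replicate 2, at summits 37 and 22 bp outside the gene. It was the weakest of the 16 in replicate 1, with the highest ratio of replicate 2 to replicate 1 (0.885), and the only member of the 16 whose intervals overlapped between the lists. NAC014 had 1 gene-end summit in replicate 1, of 7.03-fold (5.48 to 8.88) at 50 bp inside the gene end. Replicate 2 had 3 summits in 1 peak at that end, of 2.50-fold, 2.75-fold and 2.65-fold, at 33 bp inside and at 150 and 312 bp outside. Only the weakest of them, 17 bp from the replicate 1 summit, lay within 150 bp of it. The strongest, which represents NAC014 in replicate 2, lay 200 bp from it.

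The other 5 membrane-tethered members had a gene-end summit in 1 list. NAC017, which acts with NAC13 in the mitochondrial response, had 3.39-fold in replicate 1, as did NAC060, a factor that dampens sugar and abscisic acid signalling in seedlings, and NAC089, a fructose-sensing factor, had 3.45-fold. ANAC078 (AT5G04410, one of 2 genes with the symbol NAC2), which acts on genes of the proteasome under stress, had 5.45-fold at 6 bp outside the gene, a summit that also counted for NAC077 at 320 bp. NAC053, the partner of ANAC078 at proteasome genes, was met in replicate 2 alone, as described next.

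NAC052 and NAC053 lie beside each other and shared the site that both lists held. It had 12.7-fold enrichment in replicate 1 (10.4 to 15.2, pileup 108) at position 3271427 of chromosome 3, and 3.01-fold in replicate 2 (1.99 to 4.39, pileup 25) at position 3271413. The site was 225 and 211 bp outside NAC052, whose product works with a histone H3K4 demethylase, and 210 and 196 bp inside NAC053. The 200 bp limit inside a gene therefore made NAC052 a gene met in both lists and NAC053 a gene met in replicate 2 alone, although the summits were 14 bp apart and lay within NAC053. With the whole gene counted, NAC053 joined the others and 17 members (20.7%) were met in both lists, against 13.3% of all genes. The neighbour on the other side, NAC050, had an interior summit of 2.70-fold in replicate 1 and no gene-end summit. That summit was also a second gene-end summit of NAC052, 426 bp outside its other end, with no counterpart in replicate 2.

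NAC103, a factor of the unfolded protein response, had the highest fold of all members in replicate 2. It reached 10.1-fold in replicate 1 (8.11 to 12.3, pileup 90) and 5.16-fold in replicate 2 (3.71 to 7.01, pileup 39), at summits 159 and 208 bp outside the gene. The gene ERS (AT5G64050), which encodes a glutamate-tRNA synthetase, was nearer to the same summits, at 87 and 38 bp. Ordered by the smaller fold of both lists, NAC103 stood 356th among the 3201 genes met in both replicates, the highest place of any member, and NAC1 stood lowest of the 16 at 3175th.

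NAC1 and NAC085, like all 16 genes, had a lower fold in replicate 2 than in replicate 1, and the drop was steepest at NAC1. NAC1, which carries auxin signals in lateral root formation, had 10.9-fold (8.77 to 13.5, pileup 86) in replicate 1 and 2.22-fold (1.46 to 3.26, pileup 24) in replicate 2, at 686 and 722 bp outside the gene. That was the lowest replicate 2 fold and the lowest ratio (0.203) of the 16. NAC085, which halts the cell cycle after DNA damage, had 8.30-fold (6.53 to 10.4) and 2.98-fold (1.90 to 4.48), at 116 and 216 bp outside. The ratio at NAC085 was 0.359, near the median of 0.414 over the 16. Its close relative NAC044, which acts in the same response, had 4.54-fold in replicate 1 and no gene-end summit in replicate 2.

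The remaining 3 members met in both lists are, like NAC103, in none of the role lists. NAC048 and NAC049 are neighbours that shared 1 site, with 9.75-fold (7.85 to 12.0, pileup 89) in replicate 1 and 4.26-fold (2.97 to 5.93, pileup 33) in replicate 2. It lay 209 and 289 bp outside NAC049 and 789 and 709 bp outside NAC048, so NAC049 was the nearer gene. NAC004, in a row of related genes with NAC003 and NAC005, had 6.63-fold (5.17 to 8.38) in replicate 1 and 3.03-fold (1.89 to 4.65) in replicate 2, at 626 and 646 bp outside. At its other end a replicate 1 summit of 4.08-fold, 90 bp outside NAC004 and 848 bp outside NAC005, had no counterpart.

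**Figure D2:**
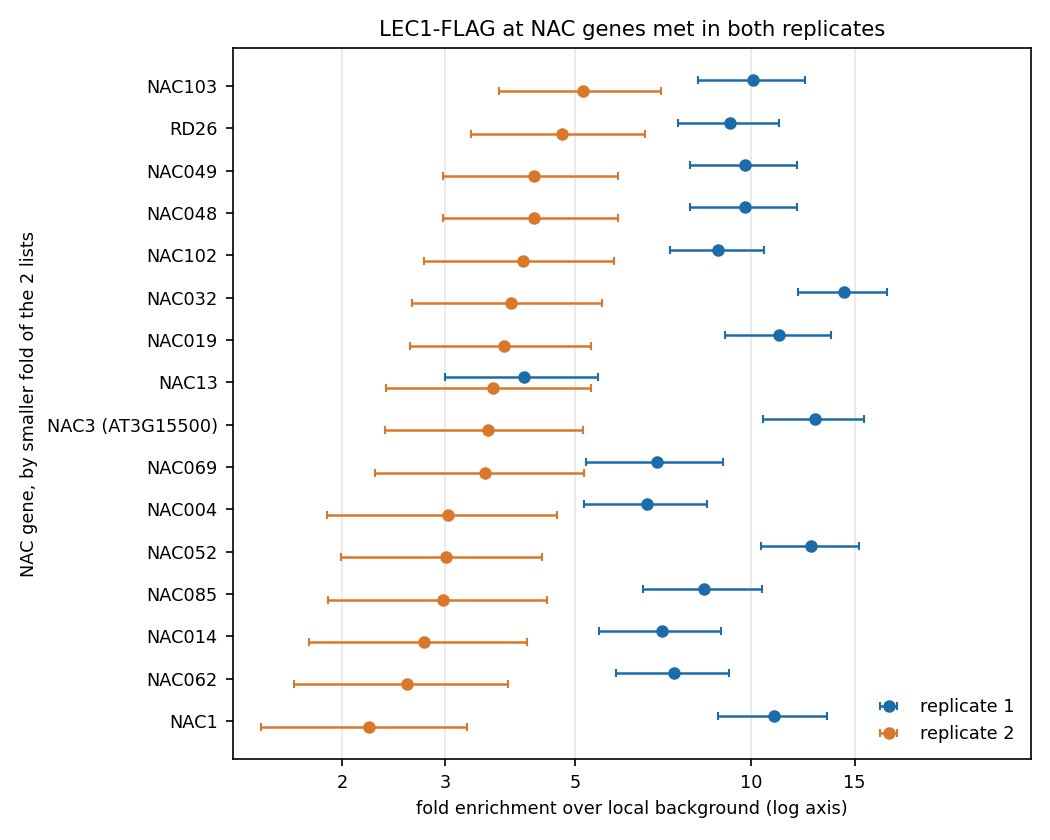
Fold enrichment over local background (horizontal log axis) at the strongest gene-end summit of each of the 16 NAC genes met in both replicates (vertical axis, ordered by the smaller fold). Points are the authors' values in each list and bars are 95% Poisson intervals of the pileup; replicate 1 is higher at every gene, and only at NAC13 do the intervals overlap.

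Across the 16 genes, fold enrichment was higher in replicate 1 at each of them. Their median fold was 9.47 in replicate 1 (range 4.09 to 14.4) and 3.59 in replicate 2 (2.22 to 5.16), against 8.51 and 3.45 over all 3201 genes met in both lists. The replicate 2 fold divided by the replicate 1 fold had a median of 0.414 at the members and 0.410 over all such genes. The order of the members was kept only loosely between the lists, with Spearman's rho of 0.23 over the 16 genes and Pearson's r of 0.15 for the log2 folds. These coefficients are a description, since all points share the same pair of libraries and 2 of them share a peak. Local background, with the 1 that MACS adds, ran from 7.96 to 13.3 fragments in replicate 1 and from 6.59 to 11.2 in replicate 2. In replicate 1 the same lowest value of 7.96 stood at NAC1 and ANAC055, and at NAC047, NAC025, NAC017, NAC060 and NAC105 among the other members. In replicate 2 the lowest value, 6.59, stood at NAC004. At these genes, in the list named, the background may be a floor of the caller and not a local value from the input.

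The lists placed the sites of these genes at nearly the same positions. The closest gene-end summits of both lists were a median of 37.5 bp apart (range 1 to 100), and within 50 bp at 10 of the 16 genes. All 16 genes had summits of both lists within 150 bp, against 95.3% of the 3201 genes. At members, with a summit counted once for each gene it met (49 such cases from 46 summits in replicate 1 and 22 from 20 in replicate 2), 38.8% of the replicate 1 cases and 40.9% of those of replicate 2 were no more than 200 bp from the end itself, against 49.9% and 48.8% over all genes. The strongest summit also counted for another protein-coding gene at 6 of the 16 members in replicate 1 and at 7 in replicate 2. With each summit given to its nearest gene alone, 13 of the 16 remained, without NAC048, NAC052 and NAC103, against 7.57% of all genes and 15.9% of members met under that rule. Strand was not in the gene table, and gene ends are therefore given without saying which is the transcription start.

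**Figure D3:**
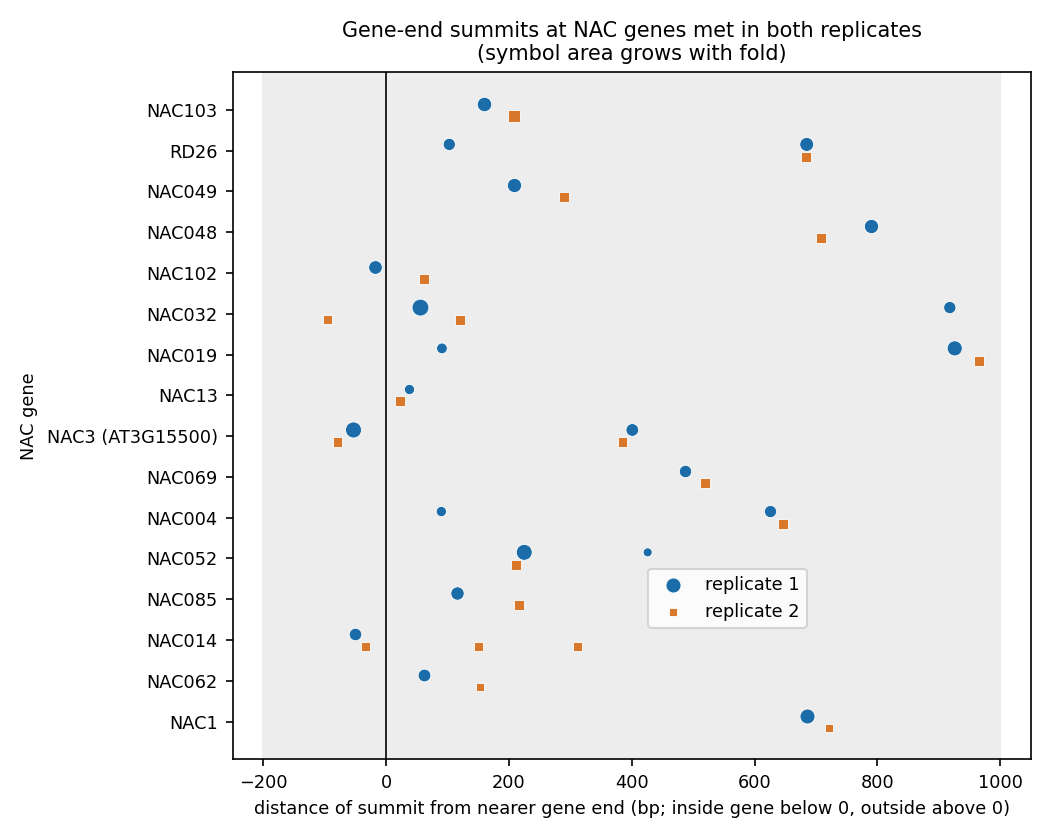
Distance of each gene-end summit from the nearer end of the gene (horizontal axis, bp, negative inside the gene and positive outside) at the 16 NAC genes met in both replicates (vertical axis); circles are replicate 1, squares are replicate 2, and symbol area grows with fold. The shaded band is the window from 200 bp inside to 1000 bp outside, and the closest circle and square of a gene lie at most 100 bp apart.

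The 22 members met in replicate 1 alone had a median fold of 4.24 there (range 2.38 to 8.76), against 3.57 over all genes met in replicate 1 alone. NAC086 and NAC045, a related pair that clears the nucleus from maturing sieve elements of the phloem, were the strongest of them, with 8.76-fold (6.94 to 10.9, pileup 78) and 7.91-fold (6.21 to 9.93, pileup 72). The nearest replicate 2 summits were 12639 and 7261 bp away from these. They were followed by NAC047 at 5.78-fold and by NAC077 and ANAC078 with their common summit of 5.45-fold. NAC025, which acts in the endosperm during germination, had 4.40-fold in replicate 1, and the nearest replicate 2 summit was 66893 bp away.

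Members with a higher replicate 1 fold were more often found again in replicate 2, and the same held over all genes. All 6 members with a replicate 1 fold of 10 or more were also met in replicate 2, against 96.2% of all genes in that range. From 8 to 10 it was 5 of 6, against 75.6%, and from 6 to 8 it was 4 of 5, against 46.3%. From 4 to 6 it was 1 of 11, against 18.0%, and below 4 it was 0 of 10, against 4.14%. NAC086 and NAC045 were the members above 6-fold that were not found again. Counts of 5 to 11 members in a range are too small to set these shares apart, and the ranges were chosen with the values known.

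**Figure D4:**
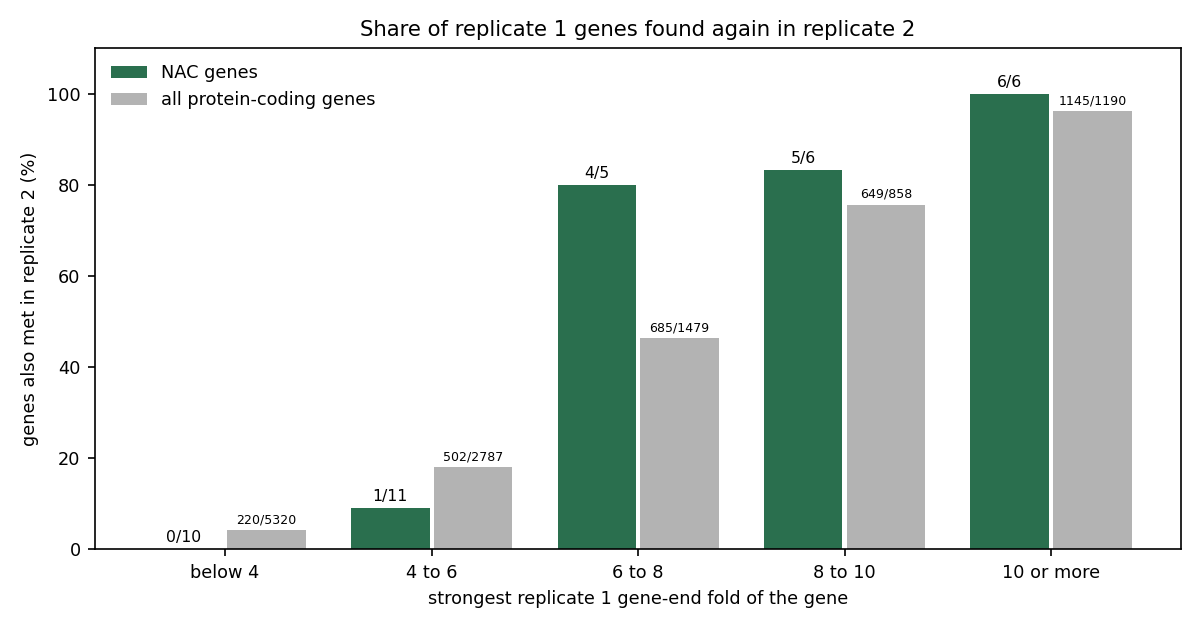
Share of genes met in replicate 1 that were also met in replicate 2 (vertical axis, percent), by the strongest replicate 1 gene-end fold of the gene (horizontal axis), for NAC genes and for all protein-coding nuclear genes, with the counts above the bars. All 6 NAC genes at 10-fold or more were found again, and 0 of 10 below 4-fold.

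NAC076, a regulator of vessel formation also known as VND2, showed how far a call could rest on the window. It was met in replicate 2 alone, by a summit of 4.63-fold (3.28 to 6.37, pileup 36) 953 bp outside the gene. Replicate 1 had a summit of 13.8-fold at 103 bp from it, but 1056 bp outside NAC076 and so just beyond the limit. Replicate 2 also had a stronger summit beyond the limit, of 5.54-fold at 1153 bp outside NAC076. The replicate 2 summit at 953 bp lay within the neighbouring gene AT4G36170. On the inner side of the same limit, the farthest gene-end summit of any member was at NAC099 in replicate 1, at 969 bp.

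Apart from NAC076, members for secondary walls and for leaf ageing had a few sites in replicate 1 and none in replicate 2. NAC105 and ANAC026, the vessel genes VND3 and VND5, had 5.02-fold and 3.70-fold in replicate 1 alone. The NAC105 summit lay 139 bp outside that gene but nearer to AT5G66290, at 37 bp. NAC066, also named NST2, which drives wall thickening in anthers, had no gene-end summit, but an interior one of 10.1-fold in replicate 1 at 246 bp from the nearer end (8.02 to 12.5, pileup 82). It was the strongest interior summit among the 6 members with an interior summit in replicate 1 and no gene-end summit. NAC042, known as JUB1 and as a brake on leaf ageing, had an interior summit of 4.65-fold in replicate 1, and NAC6, known as ORE1 and as a driver of leaf ageing, had one of 2.67-fold. The other 5 leaf ageing members, NAC016, NAC046, NAC083, ANAC087 and ORS1 (AT3G29035), had neither gene-end nor interior summits.

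ANAC056 (AT3G15510), which also has the symbol NAC2 and is known as NARS1, was placed in the role list for seed coat and embryo. It lay just outside the call in both replicates. Its nearest summits were 1076 bp outside the gene at 6.11-fold in replicate 1 and 1119 bp outside at 2.40-fold in replicate 2. With the window widened to 2000 bp, ANAC056, NAC003, NAC023, NAC061, NAC076 and NAC088 were added to the genes met in both lists, which made 22 members (26.8%, against 16.6% of all genes). At NAC003 the lists held different sites at opposite ends of the gene. Its replicate 1 summits lay 364 and 623 bp outside one end, and its replicate 2 summit lay 1979 bp outside the other.

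Space around the genes differed between members and other genes. The summed distance to the neighbouring protein-coding genes on both sides had a median of 3273 bp at the members, against 1856 bp over all genes. It was 2545 bp at the 16 members met in both lists, 2223 bp at the 22 met in replicate 1 alone and 4592 bp at the 42 met in neither. Over all genes of the same classes it was 1688, 1502 and 2088 bp, in the same order. The part of this spacing in the counts was not tested. Gene length had a median of 2148 bp at the 16 members and 1860 bp at the 42, against 2261 and 1920 bp over all genes of the same classes.

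The role lists also held 15 NAC genes known by other names, and 3 of them were met in both lists: NTM1 (6.89-fold in replicate 1 and 3.50-fold in replicate 2, at the site shared with NAC069), TIP (8.76-fold and 2.46-fold) and NTL8 (6.52-fold and 2.79-fold), all genes for membrane-tethered factors. Another 8 were met in replicate 1 alone, among them the stress genes ATAF2 at 7.19-fold and ATAF1 at 2.58-fold. With the whole gene counted, both of these were met in both lists. The abscisic acid and stress list then had 7 of 8, against 13.3% of all genes. NAM, SMB, NST1 and VND7 had a gene-end summit in neither list. By gene-end summits, 11.7% of all genes were met in both lists, 30.7% in replicate 1 alone and 57.2% in neither.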

How the data were processed

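Per the file headers, each ChIP library was set against the input of the same replicate with MACS 2.1.0.20150420, at a q threshold of 0.05, without a shift model and with fragments extended to 187 bp (replicate 1) or 149 bp (replicate 2), so replicates were not pooled. The submitters' processing notes also name BWA 0.7.12 and the build TAIR10. As deposited, the pileup is a signal of stacked fragments, the fold enrichment is a ratio of pileup to local background, each with 1 added, and −log10 p-values and q-values stand beside them. Background was computed back here as (pileup + 1) / fold. Values of the lists come from separate calls with different extensions.

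Summits on the 5 nuclear chromosomes were assigned to genes of a RefSeq table (TAIR10.1), which served for names and neighbours, in Python 3.11.15 with numpy 2.4.6, pandas 2.3.3 and scipy 1.17.1. Assignment was tested on simulated summits. A gene was represented by its gene-end summit of highest fold in each list. The members and lists were chosen with earlier results of these data known. Genes named are all members met in both lists or in replicate 2 alone, the 5 strongest of replicate 1 alone, those with interior summits in both lists and those near a limit. NAC017, NAC060, NAC089, NAC044, NAC025, NAC050, NAC066, NAC042, NAC6, NAC105, ANAC026, the leaf ageing genes without summits, the members added by the 2000 bp window and the genes with other symbols were named after their values were seen. Promoter and protein sequences were not used here, and the planned count on the start side of genes was not made without strand.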

Additional observations from a re-analysis of the deposited data

How the results depend on the processing

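The 16 members met in both lists were recounted under 10 alternatives. The count fell to 10 with a window of 500 bp outside the gene, where NAC004, NAC019, NAC048, NAC069, NAC1 and RD26 were lost, and 8.62% of all genes were met. It also fell to 10 at a −log10 q of at least 5 (6.65% of all genes), and to 2 at a −log10 q of at least 10 (2.58%). Leaving out replicate 1 gave 18 members (22.0%, against 12.0% of all genes). Leaving out replicate 2 gave 38 (46.3%, against 42.4%). The other 5 alternatives gave 13 to 22 members (15.9% to 26.8%), against 7.57% to 16.6% of all genes. Only NAC13 was lost with the strongest replicate 1 summits, as many as replicate 2 has, and NAC053 was gained with the whole gene in the window. With the summit nearest to a gene end in place of the strongest, 4 of 32 folds left their counting interval, at NAC004 (4.08), NAC019 (4.66) and RD26 (6.66) in replicate 1 and at NAC032 (2.60) in replicate 2. The shorter replicate 2 list, with pileups of 19 to 39 fragments at these genes, limits what could be found in both. The planned count on the start side of genes was not run, since the table has no strand.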
